A study of Homo sapiens with 9 samples.

Results

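CEBPA, GATA6, KLF5, ELF3 and ETV5 encode 5 transcription factors of the lung epithelium, and the peaks of NKX2-1 and FOXA1 around these genes are described here. The members are the 5 genes, each with a window set by coordinates of the human genome build hg18. Genes and windows were chosen with earlier results of these data known. The windows are chr19:38380000-38590000 for CEBPA in band 19q13.11, chr18:17900000-18110000 for GATA6 in 18q11.2, chr13:72420000-72660000 for KLF5 in 13q22.1, chr1:200150000-200350000 for ELF3 in 1q32.1, and chr3:187150000-187410000 for ETV5 in 3q27.2. The windows cover 1120 kb together and held 139 of the 125904 peaks in 5 lists. Chromatin immunoprecipitation followed by sequencing had been done in lung adenocarcinoma cells of the lines NCI-H3122, NCI-H1819 and also NCI-H2087, all with amplified NKX2-1 per the series' design text and all grown in RPMI1640 with serum; no treatment is named. NKX2-1 was precipitated with the Bethyl Laboratories antibody BL4000 in H1819 and H2087, with 1 list each, and in H3122, with 2 lists called replicates 1 and 2. FOXA1 was precipitated with the Abcam antibody ab23738 in H3122 only, with 1 list. Nothing says that the H3122 pair came from separate cultures, H1819 and H2087 have no replicate, and RNA was not measured, so whether the 5 genes are expressed in these lines was not checked.

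NKX2-1 is a homeodomain factor that sets and keeps lung epithelial identity, and FOXA1 is a forkhead factor able to bind sites in closed chromatin ahead of other factors. CEBPA is a leucine zipper factor of airway and alveolar maturation, and GATA6 a zinc finger factor of endoderm and of the distal lung. KLF5 is a zinc finger factor of the Kruppel-like family that is active in the perinatal lung. ELF3 and ETV5 both belong to the ETS family: ELF3 is found mainly in epithelia, and ETV5 acts downstream of fibroblast growth factor signalling and helps to maintain alveolar type 2 cells. In lung epithelium these factors and NKX2-1 work on overlapping sets of target genes, and a factor of this kind often has several enhancers spread around its gene.

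Of the 5 genes, 4 are in the RefSeq promoter table used here, which is in build GRCh38.p14, with 5 starts between them. The 250 bases before the start are shown for 3 starts, at GATA6, KLF5 and ELF3, because NKX2-1 peaks lay within a few kb of the hg18 positions of these genes; distances to the starts themselves were not measured. KLF5 has 2 starts in the table, 4.03 kb apart, and the second is shown since a region with peaks in 3 NKX2-1 lists was centred 4.0 kb above the hg18 position of KLF5. The coordinates printed with the sequences are those of GRCh38.p14, no start was placed in hg18, and they cannot be set beside the coordinates of the peaks. Capitals mark CAAGTG, a core found in binding sites of NKX2-1 and its relatives.
GATA6, chr18:22169339-22169588, forward strand: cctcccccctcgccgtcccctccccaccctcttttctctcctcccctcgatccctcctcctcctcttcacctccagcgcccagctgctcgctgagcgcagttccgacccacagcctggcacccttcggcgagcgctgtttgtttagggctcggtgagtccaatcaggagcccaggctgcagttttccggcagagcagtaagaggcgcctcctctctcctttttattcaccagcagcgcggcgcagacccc
KLF5, second start, chr13:73058755-73059004, forward strand: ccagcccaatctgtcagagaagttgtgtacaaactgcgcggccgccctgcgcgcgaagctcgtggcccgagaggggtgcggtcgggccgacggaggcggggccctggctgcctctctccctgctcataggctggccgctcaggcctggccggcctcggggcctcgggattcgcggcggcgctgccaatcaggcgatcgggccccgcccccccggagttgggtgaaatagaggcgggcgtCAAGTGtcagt
ELF3, chr1:202010337-202010586, forward strand: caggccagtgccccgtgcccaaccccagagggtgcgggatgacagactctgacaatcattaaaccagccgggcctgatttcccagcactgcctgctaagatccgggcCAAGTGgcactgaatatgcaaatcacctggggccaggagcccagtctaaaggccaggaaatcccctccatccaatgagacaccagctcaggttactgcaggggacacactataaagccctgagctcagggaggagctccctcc
Both strands were searched, and CAAGTG occurred on the forward strand 143 bases before the ELF3 start and 11 bases before the second KLF5 start. CAAGTG was in none of the sequences of GATA6, CEBPA or the first KLF5 start. Of the 34943 promoter sequences of this length in the table, 9.51% hold it. CAAGTG is also 1 form of the wider E-box pattern CANNTG, which other factors bind. The forkhead pattern TGTTTNC, in 15.5% of all these promoters, was in none of the 5. A match describes the letters only and is not a measured site.

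Most peaks were at KLF5 and ELF3, and few at CEBPA and ETV5. The CEBPA window held 3 peaks in H3122 replicate 1, 3 in replicate 2, 1 in H1819, none in H2087 and 1 of FOXA1. GATA6 had none in replicate 1, 6 in replicate 2, 4 in H1819, 5 in H2087 and 5 of FOXA1. KLF5 had 3, 17, 10, none and 20 peaks in the same order of lists. ELF3 had 10, 14, 5, 11 and 13. ETV5 had 1, 2, 2, 2 and 1. KLF5 and ELF3 held 103 of the 139 peaks, and no single order of the lines held for all 5 genes: H1819 outnumbered H2087 at CEBPA and KLF5, H2087 outnumbered H1819 at GATA6 and ELF3, and they were level at ETV5.

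**Figure D1:**
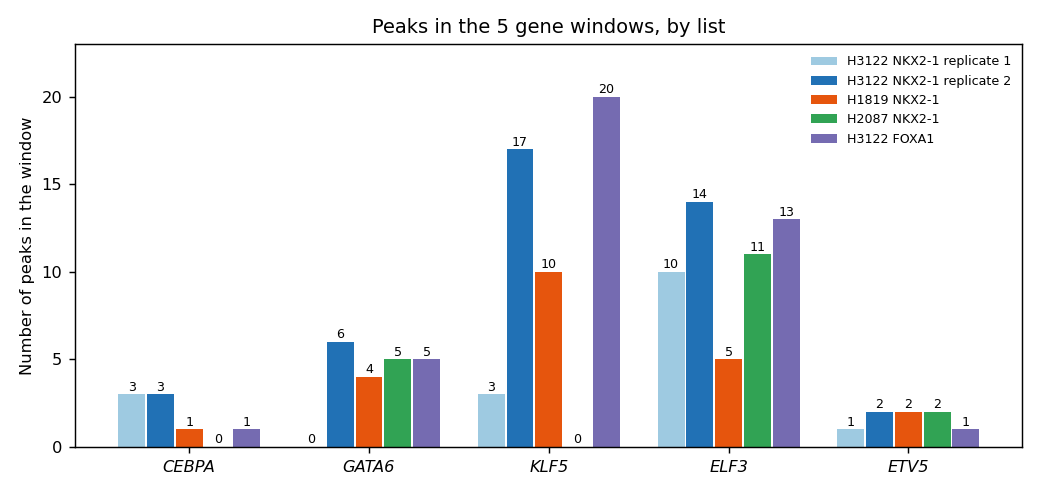
Number of peaks (vertical axis) in the window of each gene (horizontal axis), 1 bar per list with the number above it. KLF5 had 17 and 10 NKX2-1 peaks in H3122 replicate 2 and H1819 and none in H2087, while ELF3 had peaks in all 5 lists.

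The lists differ in length, from 7469 peaks in H3122 replicate 1 to 48071 in replicate 2, and read depth is not known, so each count was set against the mean density of its own list. Over the 5 windows together the density was 6.26 times the mean of the list in replicate 1, 2.40 times in replicate 2, 4.49 times in H1819, 3.43 times in H2087 and 2.59 times for FOXA1. The windows were centred on genes, and no matching of gene content was done for these ratios. ELF3 reached 20.6 times the mean in replicate 1, 4.49 times in replicate 2, 5.71 times in H1819, 11.7 times in H2087 and 4.72 times for FOXA1. KLF5 reached 5.16, 4.54 and 9.52 times in replicate 1, replicate 2 and H1819, and 6.05 times for FOXA1. GATA6 stood at 1.83 times in replicate 2, 4.35 times in H1819 and 5.08 times in H2087. CEBPA stood at 5.89 times in replicate 1, 0.916 times in replicate 2, 1.09 times in H1819 and 0.346 times for FOXA1, with no H2087 peak. ETV5 stood at 1.59, 0.493, 1.76 and 1.64 times in the 4 NKX2-1 lists and 0.279 times for FOXA1. The ratios of CEBPA and ETV5 rest on at most 3 peaks a list, which is too few for an order between lists.

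As a second scale, hg18 was cut into consecutive tiles of the length of each window. Their edges did not follow the windows, so peaks that lie together in a window can be split between neighbouring tiles. The ELF3 window is itself divided by such an edge, and tiles shifted along the genome were not counted. Of 15390 tiles of 200 kb, none had as many as the 10 replicate 1 peaks at ELF3. The tiles with at least as many peaks as ELF3 were 1.45% for replicate 2, 3.36% for H1819, 0.338% for H2087 and 1.27% for FOXA1. Of 12826 tiles of 240 kb, 5.29% matched or passed the KLF5 count in replicate 1, 1.05% in replicate 2, 0.273% in H1819 and 0.351% for FOXA1. For GATA6 the shares were 21.4% in replicate 2, 6.80% in H1819 and 5.75% in H2087. For CEBPA they were 4.14% in replicate 1, 47.9% in replicate 2 and 42.7% in H1819, and for ETV5 38.1%, 65.7%, 26.9% and 26.85% in the 4 NKX2-1 lists. Counts as high as those of ELF3 and KLF5 were thus rare among tiles in most lists, and counts as high as those of ETV5 were common. The tiles cover all of hg18 and were not matched to the windows in gene content. They were added after values were seen, and the windows were chosen with earlier results known. The shares therefore only describe the counts and do not test whether these genes are unusual.

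**Figure D2:**
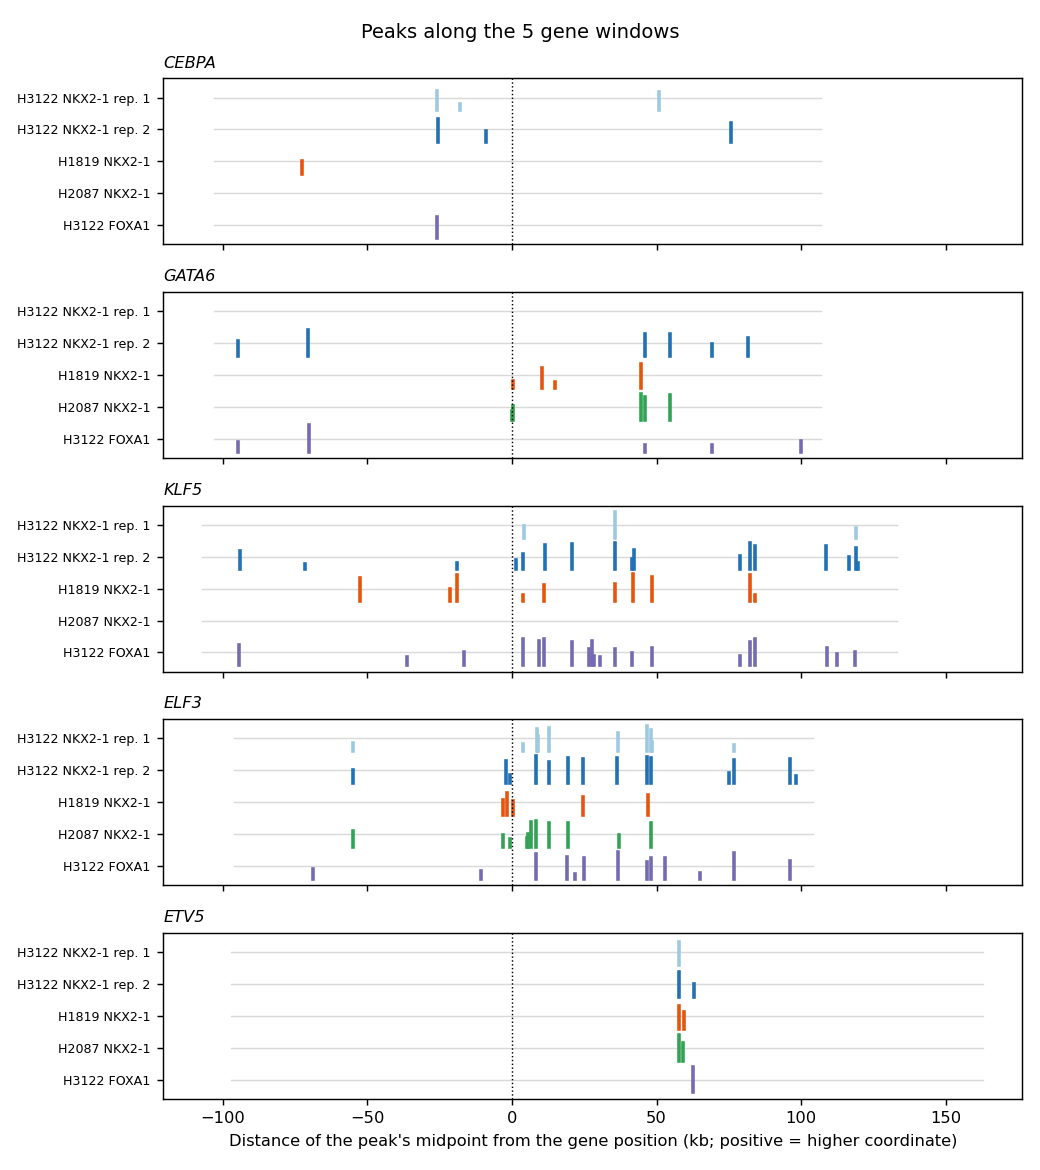
Each tick is a peak, placed by the distance in kb of its midpoint from the hg18 position of the gene (dotted line), with 1 row per list; the height of a tick is the percentile of its score within its own list. NKX2-1 peaks reach 98.3 kb above the position at ELF3 and 119.6 kb at KLF5, and those of ETV5 lie between 57.7 and 62.8 kb above it.

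Distances below are those of a peak's or region's midpoint from the gene position, which is 38.483 Mb for CEBPA, 18.003 for GATA6, 72.527 for KLF5, 200.246 for ELF3 and 187.247 for ETV5, each rounded to 1 kb. GATA6, KLF5 and ELF3 are transcribed toward higher coordinates, so a place above the position is called downstream. This refers to the position and not to a start, and KLF5 has 2 starts 4.03 kb apart. CEBPA is transcribed toward lower coordinates, and so, as background, is ETV5, so that the position used for ETV5 marks the end of the gene and not its start. No start was placed in hg18, so the position of CEBPA may likewise lie at the end of that gene. Overlapping NKX2-1 peaks of the 4 lists were merged, which gave 58 regions in the windows. A score is the authors' value for a peak, larger for stronger evidence against background, and values from different lists are given side by side without comparing their size.

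At CEBPA, peaks were few and no NKX2-1 region was found in more than 1 line. There were 6 regions, 5 of H3122 and 1 of H1819. The region at chr19:38456653-38458076, 25.6 kb below the position, was the only one with both H3122 replicates, which scored 83.7 and 333, and it was also the only one with FOXA1, which scored 258. On the strand of CEBPA that is downstream of the gene, on the side where SLC7A10 is the next protein-coding gene in the RefSeq order. The nearest NKX2-1 peak to CEBPA was 9.0 kb below the position, in replicate 2 alone with a score of 94.7. Replicate 1 had 2 peaks with no partner in replicate 2, at 18.1 kb below with 54.7 and at 50.7 kb above with 79.9, the latter 109 bp wide. Replicate 2 had 1 more, at 75.7 kb above with 197, on the side of CEBPG. The single H1819 peak was 72.7 kb below the position and scored 99.3. H2087 had no peak, as in 63.61% of the tiles of this length. At scores of at least 100, only 2 peaks of replicate 2 and the FOXA1 peak were left in the window.

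At GATA6, H1819 and H2087 had peaks at the gene position, and H3122 had none within 45 kb of it. The region chr18:18003024-18003580 held 1 H1819 peak with a score of 64.4 and 2 H2087 peaks with scores of 72.3 and 114. The H1819 score is at percentile 7.1 of its list, and the H2087 scores are at percentiles 15.4 and 38.4 of theirs. H1819 alone had further peaks at 10.4 kb above the position (score 175) and at 14.9 kb (score 63.0). The highest peak of the window in both these lists was at chr18:18047038-18047921, 44.5 kb above the position, and scored 333 in H1819 and 1165 in H2087, with no H3122 peak and no FOXA1 peak. A region 536 bp further on, chr18:18048458-18049408, had the other pairing, with 301 in H3122 replicate 2 and 353 in H2087 and no H1819 peak. The FOXA1 peak in that region scored 65.6 (percentile 7.4 of its list). H2087 and replicate 2 also shared chr18:18057116-18058290, with scores of 569.7 and 286. On the low side of GATA6 all the peaks were from H3122. The higher of them lay 70.3 kb below the position, at chr18:17932230-17933110, with 679 in replicate 2 and percentile 93.3 of that list, and FOXA1 scored 1466, its highest of the window. The other, 94.6 kb below, scored 128 in replicate 2 and 82.5 for FOXA1. Far above the position, replicate 2 was the only NKX2-1 list with peaks at 69.2 and 81.8 kb, with 94.6 and 173. The first of these overlapped a FOXA1 peak with 64.1, and a FOXA1 peak without NKX2-1 lay at 99.9 kb with 85.2. Replicate 1 listed no peak in the window, so every H3122 NKX2-1 peak at GATA6 rests on 1 list. That is common: 67.05% of the tiles of this length had no replicate 1 peak, and 12.5% of the whole replicate 2 list overlapped replicate 1.

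At KLF5, H3122 and H1819 had many NKX2-1 peaks and H2087 had none. The 19 regions were 9 of H3122 alone, 3 of H1819 alone and 7 shared by these lines. Windows with no H2087 peak are common, as 60.75% of the tiles of this length had no H2087 peak. Among the 35 tiles with 10 or more H1819 peaks, 3 had none, or 8.57%, and the median was 4 H2087 peaks; none of the 3 tiles touched the KLF5 window. With scores of at least 100 the KLF5 window kept 1, 12 and 7 NKX2-1 peaks in replicate 1, replicate 2 and H1819. Copy number of the window was not measured, and its part in these counts was not tested.

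The highest KLF5 peaks of replicate 2 and of H1819 were in different regions, in lists of different length, so this does not show a change between the lines. The highest of 17 replicate 2 peaks was at chr13:72562150-72563237, 35.7 kb above the position, with a score of 1522, and the highest of 3 replicate 1 peaks, with 159.8, was in the same place. The H1819 peak there scored 138 and was number 6 of 10 in its list within the window. The highest H1819 peak, with 3100, the value at which scores pile up in these lists, lay at chr13:72568229-72569771, 42.0 kb above. Replicate 2 had 2 peaks inside this 1543 bp region, with scores of 84.8 and 192, numbers 13 and 8 of its 17. FOXA1 had peaks at both places, with 148 and 97.7, percentiles 53.0 and 33.2 of its list. The region 19.1 kb below the position was likewise high in H1819, with 1035, and in the lowest part of replicate 2, with 64.45 at percentile 5.7. The region chr13:72608817-72609569, 82.2 kb above, was high in both lines, with 902 in replicate 2 and 986 in H1819, and FOXA1 scored 425. H3122 and H1819 also shared 11.3 kb above the position, with 526 in replicate 2, 124 in H1819 and 971 for FOXA1. The highest region of H3122 alone was 20.8 kb above, with 558 in replicate 2 and 414 for FOXA1. Those of H1819 alone were at 48.4 kb above with 371, and at 52.6 and 21.5 kb below with 316 and 91.2.

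The shared KLF5 region nearest to the gene position was chr13:72530509-72531588, 4.0 kb above the position. Its NKX2-1 peaks scored 63.8 in replicate 1, 134 in replicate 2 and 63.5 in H1819, percentiles 30.5, 49.1 and 5.5 of their lists. The FOXA1 peak over it scored 1291, percentile 96.8. The highest FOXA1 score of the window, 1551, was at chr13:72610188-72611735, 84.0 kb above, where replicate 2 scored 379.6 and H1819 65.0. Closer in, replicate 2 alone had a peak 1.5 kb above the position, with 80.3. FOXA1 peaks without any NKX2-1 peak numbered 8 here, the highest at 27.8 kb above with 517 and the next at 9.3 kb with 473. Of the 14 regions on the high side of KLF5, toward KLF12, 11 had FOXA1, and of the 5 on the low side, toward PIBF1, 1 had it. The sides differ in lines: those at 52.6 and 21.5 kb below were in H1819 alone, as was that at 48.4 kb above. FOXA1 was mapped in H3122 only. Over the genome 6.08% of regions of H1819 alone had FOXA1, and 46.5% of those of H3122 alone. At the far end, 118.8 kb above, both H3122 replicates shared a region, with 59.9 and 248.

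**Figure D3:**
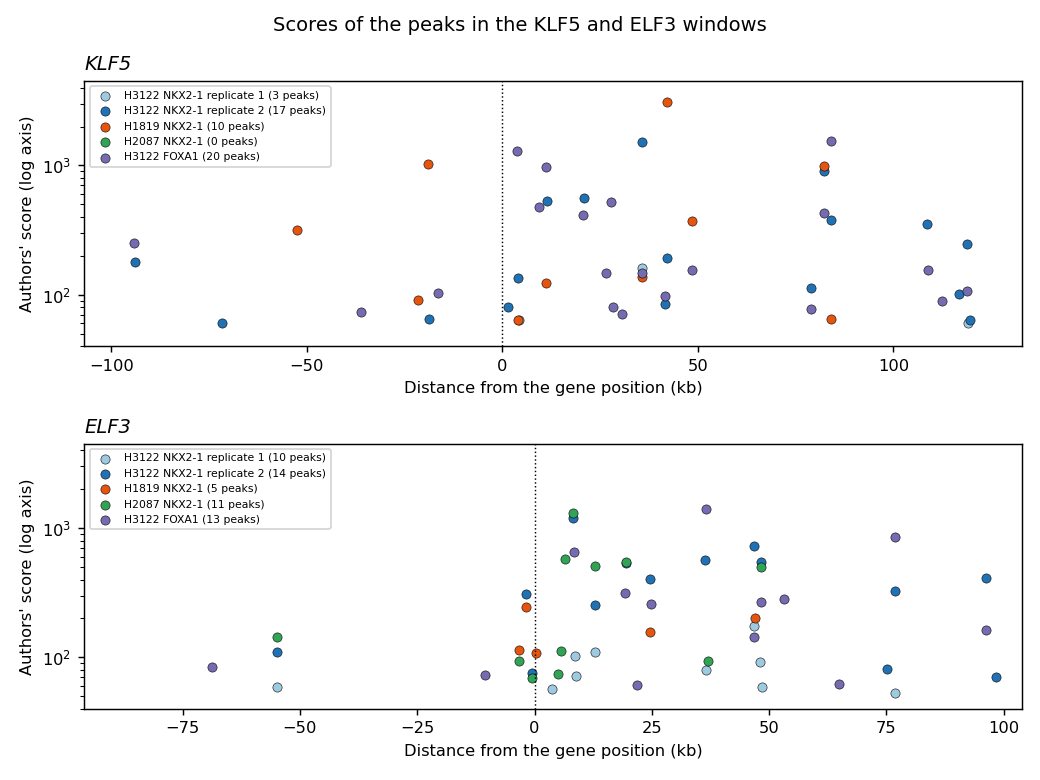
Score of each peak (vertical axis, logarithmic) against its distance in kb from the position of KLF5 (top) and ELF3 (bottom), 1 point per peak and a colour per list. At KLF5 the highest H1819 point (3100, 42.0 kb) and the highest replicate 2 point (1522, 35.7 kb) are in different places; at ELF3 the highest points of H2087 (1306) and replicate 2 (1207) coincide at 8.3 kb.

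ELF3 had NKX2-1 peaks in every list and the largest number of regions shared between lines, 11 of 20. Most of them, 7, were shared by H3122 and H2087, 3 by H3122 and H1819 and 1 by H1819 and H2087. The highest score of H2087, 1306, and that of replicate 2, 1207, were at the same place, chr1:200253442-200255233, 8.3 kb above the position. Replicate 1 had 2 peaks there, with 103 and 71.3, FOXA1 scored 654, and H1819 had no peak. Around it H2087 had a run of peaks that no other list shared, at 5.1, 5.6 and 6.6 kb above the position with scores of 75.0, 111 and 578. The last of these ends 72 bp before the shared region begins. Replicate 1 alone had a low peak 3.7 kb above, with 57.1.

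H1819 had 3 of its 5 ELF3 peaks within 3.2 kb of the gene position. Its highest, with 245, lay 1.8 kb below the position and overlapped a replicate 2 peak with 311. A peak 3.2 kb below was shared with H2087, with 114 in H1819 and 94.2 in H2087, and 1 at 0.4 kb above with 108 was in H1819 alone. Between them, 0.6 kb below the position, replicate 2 and H2087 shared low peaks with 75.35 and 69.6. All 3 lines therefore had NKX2-1 peaks within 3.2 kb of ELF3, but each of these 4 regions held 1 or 2 lines. With peaks within 500 bp joined, the upper 3 became 1 region, chr1:200243630-200246638, with replicate 2, H1819 and H2087. FOXA1 had no peak in any of these 4 regions. RNPEP is the next protein-coding gene on the low side, and a peak is not assigned to a gene by its place alone.

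Further out, a pair of neighbouring regions was divided between the lines. The region chr1:200292278-200293232, 46.8 kb above, had 174 in replicate 1, 722 in replicate 2, 200.05 in H1819 and none in H2087. The next region begins 405 bp later, at chr1:200293638-200294782, with 91.7 and 59.5 in replicate 1, 544 in replicate 2, 496 in H2087 and none in H1819. FOXA1 had a peak in each, with 145 and 267. H3122 thus had both regions, and H1819 and H2087 had 1 each. Where peaks within 500 bp were joined, the pair became 1 region with all 4 NKX2-1 lists. The highest FOXA1 score of the window, 1399, was at chr1:200281339-200283385, 36.4 kb above, where replicate 1 scored 80.2, replicate 2 scored 568 and H2087 scored 94.1. H3122 and H2087 shared 3 more regions: 12.9 kb above with 109.75, 253 and 509 in replicate 1, replicate 2 and H2087, 19.4 kb above with 540.4 in replicate 2 and 543 in H2087, and 54.8 kb below with 58.65, 109.4 and 144. The H3122 and H1819 pair at 24.7 kb above scored 406 and 158. The highest region of H3122 alone, 96.2 kb above, scored 413 in replicate 2, and the highest FOXA1 peak without NKX2-1, at 53.1 kb, scored 281.

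ETV5 had the fewest peaks beside CEBPA, but all 8 of them fell within 6.03 kb, and 1 place was shared by all lines. The region chr3:187304132-187305309, 57.7 kb above the position, scored 109.8 in replicate 1, 576.5 in replicate 2, 279.8 in H1819 and 693 in H2087. It was the highest peak of the window in each of the 4 NKX2-1 lists and had no FOXA1 peak. It was also the only region of the 58 with peaks in all 4 lists, 1.72% (95% Wilson interval 0.305 to 9.14), and over the genome 1.61% of 59685 regions have them. Where either H3122 replicate was enough, as in the other classes, it was still the only one of the 58 in all 3 lines. Over the genome 2754 of the 59685 regions were in all 3 lines by that count. The next region, 617 bp later at chr3:187305927-187306649, was shared by H1819 with 129 and H2087 with 183 and was not listed in H3122. The third, chr3:187309537-187310156, was in replicate 2 alone with 101 and overlapped a FOXA1 peak with 692. The distance of these peaks from the start of ETV5 was not analysed here. TRA2B and DGKG are the neighbours. No peak of any list lay within 50 kb of the position given for ETV5, which is the low end of the gene.

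Over the 5 windows, 24 of the 58 regions were in at least 2 lines, 41.4% (29.6 to 54.2), and over the genome 23.3% are. ELF3 gave 11 of these, KLF5 7, GATA6 4, ETV5 2 and CEBPA none. Peaks that share a gene are not independent of each other, so the intervals describe counting error only, and no test was made. Regions in H3122 and H1819 alone numbered 10, those in H3122 and H2087 alone 9, and those in H1819 and H2087 without H3122 4. Over the genome the same classes, in this order, held 4274, 6647 and 257 of 59685 regions. The 4 regions of H1819 and H2087 are at GATA6 with 2, ELF3 with 1 and ETV5 with 1. Taken by list, 11 of 22 H1819 peaks overlapped a replicate 2 peak, 50.0% (30.7 to 69.3), where the whole H1819 list has 53.4%. For H2087 it was 10 of 18, 55.6% (33.7 to 75.4), where the whole list has 67.7%. The intervals of both shares hold the values of the lists. In the other direction, 12 of 42 replicate 2 peaks overlapped an H1819 peak, 28.6% (17.2 to 43.6), against 14.7% of the whole replicate 2 list. With H2087 it was 10 of 42, 23.8% (13.5 to 38.5), against 20% of the list. The interval for H1819 lies above the list's value, and that for H2087 holds it. Of the 10 regions of H3122 and H1819 alone, 7 were at KLF5 and 3 at ELF3. The share with H1819 thus rests mostly on 1 gene, and the interval does not allow for this.

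**Figure D4:**
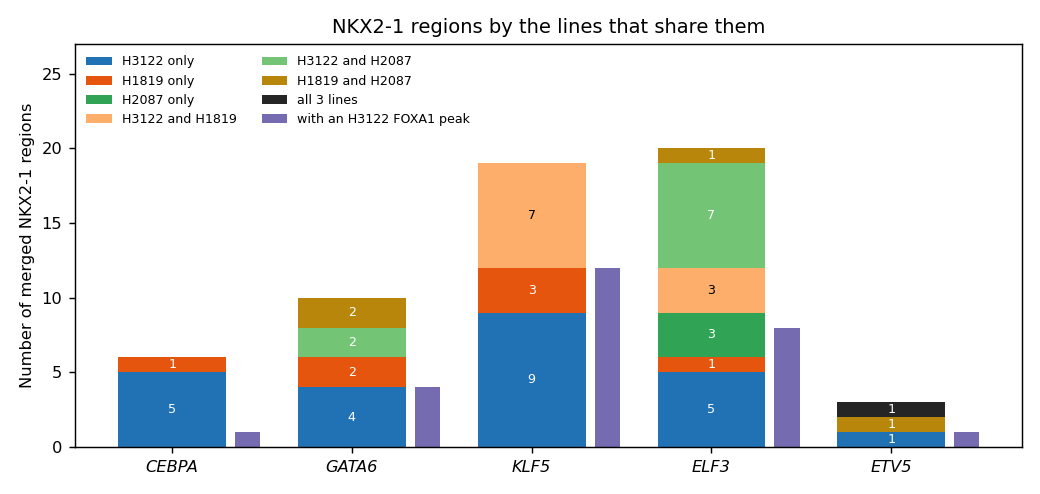
Merged NKX2-1 regions in each window (vertical axis), stacked by the lines with a peak, H3122 counting with either replicate; the narrow bar beside each stack is the number of these regions with an H3122 FOXA1 peak. KLF5 has no colour that includes H2087, and the single region of all 3 lines is at ETV5.

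Overlap between the H3122 replicates was mostly at ELF3. Of 17 replicate 1 peaks in the windows, 14 overlapped a replicate 2 peak, 82.4% (59.0 to 93.8), and of the whole list 81.7% did. In the other direction it was 12 of 42 replicate 2 peaks, 28.6% (17.2 to 43.6), and 12.5% of the whole list. ELF3 accounts for 7 of these 12, out of its 14 replicate 2 peaks, and the other 4 windows for 5 of 28. Replicate 1 holds peaks down to a score of 50, lower than the other lists. With scores of at least 60, 6 of its 10 ELF3 peaks and 11 of its 17 peaks in the windows were left.

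FOXA1 met NKX2-1 at 26 of the 58 regions, 44.8% (32.7 to 57.5), and 39.7% of all regions do so. Of the 42 replicate 2 peaks, 25 overlapped FOXA1, 59.5% (44.5 to 73.0), where the whole list has 47.8%. From the side of FOXA1, 26 of 40 peaks overlapped NKX2-1 of any list, 65.0% (49.5 to 77.9), against 56.5% of the FOXA1 list. The intervals of all 3 shares hold the values of the lists. By line, 25 of 44 regions with an H3122 NKX2-1 peak had it, 56.8% (42.2 to 70.3), and 1 of 14 without one, 7.14% (1.27 to 31.5). The genome as a whole gives 46.8% and 7.02%. FOXA1 was mapped in H3122 only, and the regions of H1819 and H2087 have no FOXA1 measurement of their own. The 1 exception was at KLF5, at chr13:72574960-72575909, 48.4 kb above the position, with 371 in H1819 and 156 for FOXA1. By gene, FOXA1 was at 12 of 19 regions of KLF5, 8 of 20 of ELF3, 4 of 10 of GATA6 and 1 each at CEBPA and ETV5.

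At CEBPA, GATA6, KLF5 and ELF3, more NKX2-1 regions lay downstream of the gene position than upstream. All 3 regions of ETV5 lay above its position. Given the direction of ETV5 named above as background, that is the opposite side, upstream of the position. The share that follows leaves ETV5 out. For the 4 genes with a strand in the RefSeq table, 42 of 55 regions were downstream, 76.4% (63.7 to 85.6), while 52.0% of the length of the windows is. ELF3 had 16 of 20 downstream, KLF5 14 of 19, GATA6 8 of 10 and CEBPA 4 of 6. Peaks of 1 gene are not independent, and no test was made. Regions downstream reached as far as 119.6 kb at KLF5 and 98.3 kb at ELF3, close to the ends of their windows, so peaks beyond the windows were not counted.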

How the data were processed

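Peak lists of 5 precipitated libraries were used, and the 4 input libraries of the series were not analysed here. The submitters' processing notes name Bowtie, MACS 1.4.0 and hg18; thresholds, read depth and which control each list had are not given in the sources. Each deposited list gives positions and the authors' score per peak, from 1 library per the labels. From its lowest values, 50.00 and 60.00, it looks like -10 log10 of a p-value; no source states this. It was used only within a list.

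Windows and gene positions were taken as given for this work. A peak or region belongs to a window by its midpoint. NKX2-1 peaks that overlapped by at least 1 bp were merged, and a region has FOXA1 where it overlaps a FOXA1 peak by at least 1 bp. Shares have 95% Wilson intervals, which cover counting error only. No test was run, since 3 of the 4 groups have 1 list. Regions in all 3 lines needed both H3122 replicates; other classes took either. Members, windows and comparisons were chosen with earlier results of these data known. Regions named were those in all 4 NKX2-1 lists, the nearest and highest peak of each list, the highest region of each line alone and the highest FOXA1 peak without NKX2-1; others were added after their values were seen, as were the tiles, the sides of the gene and the score limit of 60.

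Chromosome lengths came from GenomeInfoDb 1.38.1 and bands from circlize 0.4.16 in R 4.3.3; other steps used Python 3.11.15, numpy 2.4.6, pandas 2.3.3 and matplotlib 3.10.9. Overlap and merging were tested on simulated lists. Alternatives were a score of at least 100, windows of 50 kb on either side, the 7469 best peaks of each list, merging within 500 bp, midpoint overlap and leaving out either H3122 replicate.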

Additional observations from a re-analysis of the deposited data

How the results depend on the processing

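Counts over the 5 windows were compared under each alternative, and a count within 1.5 times its value was taken as unchanged, as was a FOXA1 share inside its interval. Of 39 such values, 26 were unchanged and 13 moved; the cause of these moves was not tested beyond the peaks each setting removes. Scores of at least 100 left 5 of the 17 replicate 1 peaks and 26 of the 40 FOXA1 peaks, and scores of at least 60, chosen after the data were seen, left 11 replicate 1 peaks. Windows of 50 kb on either side left 20 of 42 replicate 2 peaks, 23 FOXA1 peaks, 32 of 58 regions and 0 regions in all 3 lines, as the ETV5 region lies 57.7 kb from its position. That position is the end of ETV5 and not its start, so this loss does not show that the peaks lie far from the start. Lists of 7469 peaks each left 13 replicate 2 peaks, 11 of 18 H2087 peaks, 12 FOXA1 peaks and 34 regions, and the FOXA1 share fell from 44.8% to 23.5%. Regions in at least 2 lines fell with these lists from 7 to 3 at KLF5, from 4 to 1 at GATA6 and from 11 to 7 at ELF3, and with scores of at least 100 from 7 to 4 at KLF5; with windows of 50 kb, ETV5 kept 0 of 2. H2087 had no KLF5 peak at any setting, as its list held none, and with lists of equal length H1819 had 7 there. Joining peaks within 500 bp gave 2 regions in all 3 lines, at ELF3 and ETV5, in place of 1 where both H3122 replicates are asked for, and 3 where either will do, the third being at the ELF3 position. Without either H3122 replicate in turn, the regions numbered 40 to 55, those in all 3 lines stayed at 1 and the FOXA1 share was 42.5% to 47.3%; without replicate 2, regions fell from 19 to 11 at KLF5 and from 10 to 6 at GATA6, and those in at least 2 lines from 7 to 2 at KLF5, from 4 to 2 at GATA6 and from 11 to 7 at ELF3. No paired analysis was possible because no result comes from a test and the groups compared share fewer than 2 replicate numbers. The lists name only peaks past a threshold, so a place with no peak may still be bound below it.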
